A study of Mus musculus with 2 samples.

Results

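The 9 genes followed here carry the interferon and cytokine signal inside the cell: the interferon regulatory factors Irf1, Irf5, Irf7, Irf8 and Irf9, the signal transducers Stat2 and Stat3, and the feedback inhibitors Socs1 and Socs3. They were taken by symbol, as 9 of the 32285 features counted, and each was followed in GR1+ cells of 4T1 tumors, a mouse mammary carcinoma grown in BALB/c mice aged 6-8 weeks. The samples were the parental line 4T1P, whose tumors did not respond to anti-PD1, and 4T1M, a line derived from it by exposure to the carcinogen MNNG, whose tumors responded. Tumor cell suspensions of 5 mice were pooled per sample as the series states it (the study's text is not uniform on this number), GR1+ cells were isolated with beads, and 1 droplet library was made per condition. Every difference between 4T1P and 4T1M is therefore a difference between 2 libraries: no test across animals was possible, tumor line and library cannot be told apart, and the 95% intervals cover counting error only.

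A unique molecular identifier (UMI) stands for 1 captured RNA molecule. The libraries held 2947 and 5004 barcodes with 21855657 and 24303957 UMIs in 4T1P and 4T1M, and 1726 and 3461 barcodes passed the limits of 500 to 5000 genes and at most 10% mitochondrial UMIs. Neutrophils were the barcodes with at least 1.5% of UMIs in S100a8 and S100a9 and under 0.5% in C1qa, C1qb, C1qc and Apoe (612 and 1686 barcodes). Macrophages had under 1.5% in S100a8 and S100a9 and at least 0.3% in the 4 genes named with Csf1r, Cd68 and Fn1 (798 and 976). A further 212 and 680 retained barcodes fell in no class and were left out, with median depths of 2797.5 and 2525 UMIs. The paper reports lower S100A8 and S100A9 mRNA in its interferon-stimulated Ly6E-high neutrophils, so the neutrophil rule may miss some such cells. How many it missed in each library was not tested. The median depth was 3054.5 and 2957.5 UMIs per neutrophil against 9727 and 9213.5 per macrophage. The 10 neutrophil markers that the rule did not use summed to 20130 and 17195 CPM (UMIs of a gene scaled to 1000000 UMIs of the class and library) in neutrophils of 4T1P and 4T1M and to 381 and 542 in macrophages, and the 10 macrophage markers to 3721 and 2704 CPM in macrophages and to 101 and 128 in neutrophils. The libraries shared 5 barcode sequences, 3 of them retained in both.

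Interferon signaling runs in a short relay. Type I interferon engages its receptor, the kinases Jak1 and Tyk2 become active, and Stat2 and Irf9 enter the complex ISGF3, which binds the interferon-stimulated response element (ISRE). Interferon-gamma acts mainly at the GAS element. Irf7 is itself induced by ISGF3 and amplifies type I interferon production, Irf1 is a primary target of interferon-gamma, Irf5 acts downstream of Toll-like receptors, and Irf8 directs the monocyte and dendritic lineage at the expense of neutrophils. Stat3 conveys G-CSF, interleukin-6 and interleukin-10 signals. Socs1 restrains interferon receptors and Socs3 the receptors of interleukin-6 and G-CSF, and both are transcribed in response to the signals they shut off.

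In GRCm38 (GENCODE vM21) the genes are Irf1 at chr11:53770014-53778374 (plus), Irf5 at chr6:29526625-29541871 (plus), Irf7 at chr7:141262706-141266481 (minus), Irf8 at chr8:120736358-120756694 (plus), Irf9 at chr14:55603571-55610030 (plus), Stat2 at chr10:128270559-128292849 (plus), Stat3 at chr11:100885098-100939540 (minus), Socs1 at chr16:10782240-10785536 (minus) and Socs3 at chr11:117966079-117970047 (minus).

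Irf1, Irf5, Irf7 and Stat3 overlap Gm17334, Tnpo3, Phrf1 and Stat5a on the opposite strand, and the strand setting of the counting is not given in the sources used here, so reads of these pairs may not be separable.

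RefSeq promoters (build GRCm38.p6) were found for all 9 genes. The 250 bases before each RefSeq start were searched on both strands for an ISRE-type core, GAAANNGAA, and the GAS core, TTCNNNGAA. The GAS core reads the same on both strands. RefSeq starts need not match the GENCODE spans given above. The windows of Socs3 and Irf9, and a further window each of Irf1 and Irf8, lay inside those spans. The window of Irf7 overlapped its span. The ISRE-type core stood in 7.13% and the GAS core in 7.02% of all 32851 such windows. Counted by gene, with a match in any window, the shares were 8.18% and 8.13% of 27025 genes. Among the 9 genes, 2 held the ISRE-type core (Stat2 and Socs1) and 3 the GAS core (Irf1, Irf8 and Socs3). Capitals mark the matched core in these 5 windows, which are shown because they held a match. They are chr11:53769764-53770013 on the plus strand for Irf1, chr8:120736108-120736357 plus for Irf8, chr10:128270248-128270497 plus for Stat2, chr16:10785537-10785786 minus for Socs1 and chr11:117969367-117969616 minus for Socs3.
Irf1: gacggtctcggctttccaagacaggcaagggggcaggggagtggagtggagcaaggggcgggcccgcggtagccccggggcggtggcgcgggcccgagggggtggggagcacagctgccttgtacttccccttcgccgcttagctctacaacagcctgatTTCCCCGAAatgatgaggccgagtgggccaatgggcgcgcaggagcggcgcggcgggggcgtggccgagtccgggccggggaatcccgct
Irf8: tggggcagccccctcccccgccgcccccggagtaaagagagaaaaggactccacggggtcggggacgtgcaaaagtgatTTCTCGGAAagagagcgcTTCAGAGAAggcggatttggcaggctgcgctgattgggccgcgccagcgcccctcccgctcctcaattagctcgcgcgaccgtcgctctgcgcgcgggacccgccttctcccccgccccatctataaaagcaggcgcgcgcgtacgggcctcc
Stat2: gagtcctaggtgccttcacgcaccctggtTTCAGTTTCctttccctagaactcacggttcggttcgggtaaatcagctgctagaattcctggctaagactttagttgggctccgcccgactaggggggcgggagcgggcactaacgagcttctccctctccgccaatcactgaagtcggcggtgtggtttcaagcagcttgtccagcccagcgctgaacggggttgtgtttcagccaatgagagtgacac
Socs1: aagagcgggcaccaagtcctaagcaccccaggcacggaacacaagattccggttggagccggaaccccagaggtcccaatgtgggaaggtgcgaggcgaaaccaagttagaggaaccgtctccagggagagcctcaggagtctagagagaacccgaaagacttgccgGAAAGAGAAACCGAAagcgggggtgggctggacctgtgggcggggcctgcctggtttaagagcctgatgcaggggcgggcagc
Socs3: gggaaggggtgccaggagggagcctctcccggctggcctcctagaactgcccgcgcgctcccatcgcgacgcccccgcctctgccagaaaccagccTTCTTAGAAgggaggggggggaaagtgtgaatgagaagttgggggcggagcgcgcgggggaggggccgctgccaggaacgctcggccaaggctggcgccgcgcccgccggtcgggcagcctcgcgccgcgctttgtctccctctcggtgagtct
The Irf1 core began 90 bases before the RefSeq start, from which all positions are counted. Irf8 held 2 GAS cores, at 171 and 153 bases, and Socs3 1, at 154 bases. Socs1 held 2 overlapping ISRE-type cores, at 83 and 77 bases, and Stat2 1 on the opposite strand, at 221 bases. Neither core was found in the windows of Irf5, Irf7, Irf9 and Stat3. Of these, Irf7 and Irf9 rose with interferon-stimulated genes in neutrophils, as given below. A match describes letters and does not show that a factor binds there.

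The first question was which of the 2 major GR1+ classes carries each factor. Irf8 and Irf5 were macrophage genes, while Irf1, Irf9 and Socs1 were at least 2-fold higher in neutrophils in both libraries, Irf9 of 4T1M only just. With total UMIs, Stat3 leaned to neutrophils by less than 2-fold, Socs3 differed little, and the order of Irf7 depended on the library. With TMM or DESeq2 scaling Irf7 was lower in macrophages in both libraries. Stat3 then passed 2-fold, and its lowest log2 ratio over the alternative settings was -1.66 in 4T1P and -1.61 in 4T1M. At least 2-fold higher in macrophages were 2 of the 9 genes in each library, beside 53.6% of 8954 genes with at least 50 UMIs in 4T1P and 50.3% of 9338 in 4T1M. At least 2-fold lower were 3 of 9 in each, beside 10.2% and 11.0% of all genes. The median log2 ratio of all genes, macrophages over neutrophils, was 1.17 and 1.01, and that of the 9 genes -0.56 and -0.13. TMM scaling moved every log2 ratio of this comparison by -0.68 in 4T1P and -0.74 in 4T1M, so directions were read under both scalings.

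**Figure D1:**
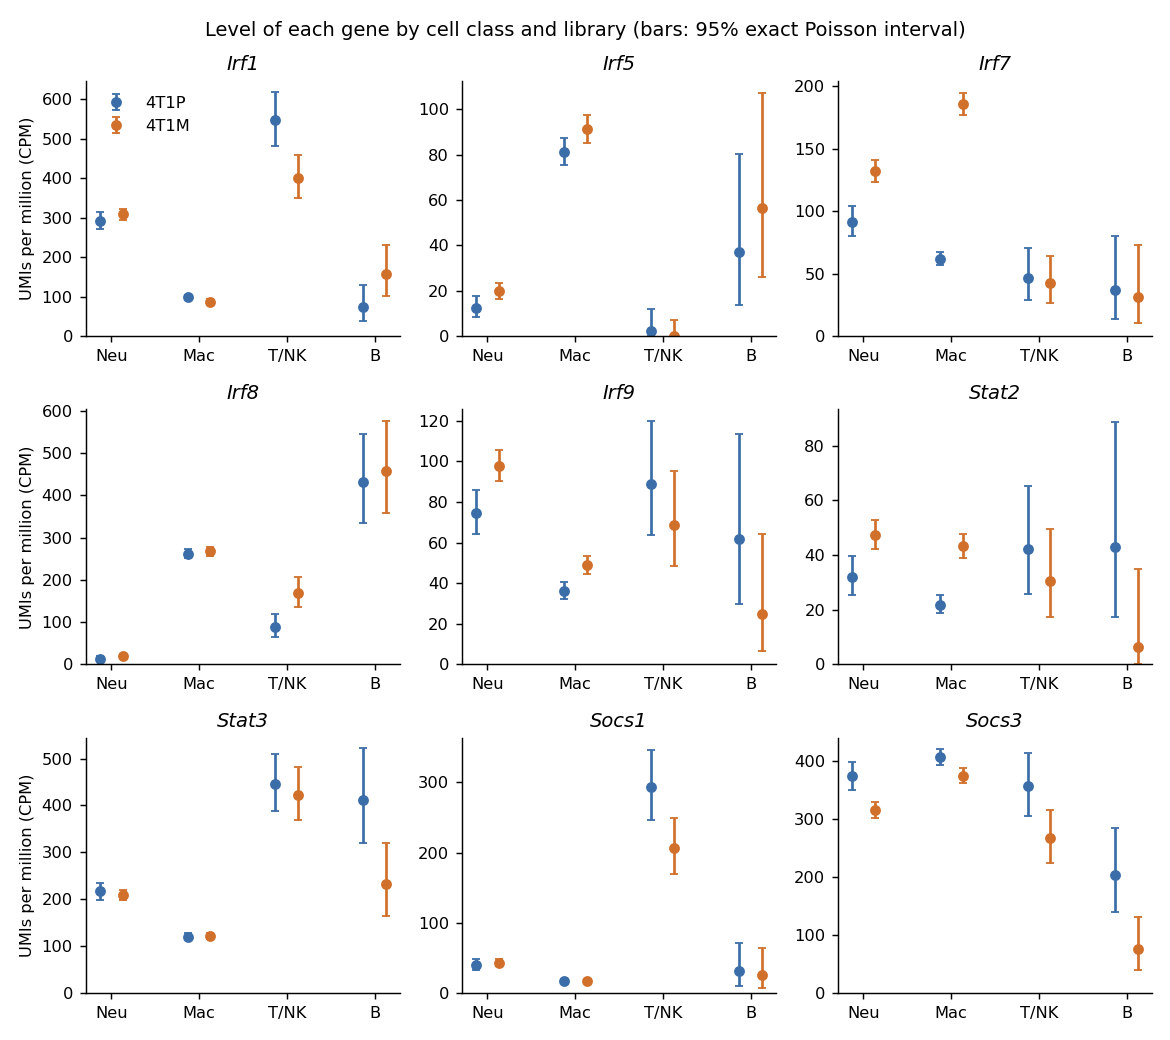
Level of each of the 9 genes in CPM (vertical axis, linear, from 0) in neutrophils (Neu), macrophages (Mac), T/NK and B barcodes; blue points are 4T1P and orange points 4T1M, 1 library each, with 95% exact Poisson intervals. Irf8 and Irf5 sit highest in macrophages and B barcodes, Irf1 and Socs1 in T/NK barcodes, and Irf7 of 4T1M macrophages (186 CPM) above every other Irf7 value.

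Irf8, the lineage factor of monocytes, stood at 262 CPM in 4T1P macrophages and 268 in 4T1M macrophages, against 13.98 and 20.8 CPM in neutrophils. B barcodes, which express Irf8 in their own right, held 431 and 457 CPM. Macrophages were thus 18.7-fold (log2 4.23, 3.75 to 4.75) and 12.9-fold (3.69, 3.44 to 3.94) above neutrophils, and 3.54 and 2.95 on the log2 scale with TMM. The neutrophil values were 5.34% and 7.77% of the macrophage level. The 10 macrophage markers in neutrophils had medians of 2.69% and 4.26% of theirs. Of the 10, 9 were at most 4.19% and 7.71%, below Irf8 in 4T1P and nearly level with it in 4T1M. The exception was Gpnmb, at 45.2% and 30.1%, which had only 7.07 and 21.2 CPM in macrophages and is named after its values were seen. Siglech, a plasmacytoid dendritic marker, counted 31 UMIs in 4T1P neutrophils and 0 in 4T1M neutrophils. The other dendritic markers counted few UMIs in these neutrophils. They were Ccr7 with 4 and 2, Flt3 with 1 and 1, Clec9a with 1 and 1, Zbtb46 with 0 and 1 and Xcr1 with 0 and 0. The part of dendritic cells in the Irf8 value was not tested. With stricter class rules the log2 ratios were 6.30 and 4.21, so neutrophil Irf8 was then a smaller part of its macrophage level. The markers were not recomputed under those rules, so the comparison with them does not extend there. The part of macrophage RNA in the neutrophil Irf8 value was not tested. In the annotation Irf8 overlaps Gm20388 on the same strand, so its count is uncertain to that extent.

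Irf5 gave 81.2 and 91.1 CPM in macrophages and 12.4 and 19.8 in neutrophils, a ratio of 6.56 and 4.61. After each cell was thinned to 1000 UMIs, 6.35% (4.73 to 8.30) and 8.95% (7.20 to 11.0) of macrophages held an Irf5 UMI. In neutrophils the share was 1.47% (0.675 to 2.77) and 1.66% (1.11 to 2.40), against 1.37% (0.0347 to 7.40) in T/NK barcodes of 4T1P. Irf5 had 0 UMIs at full depth in the 94 T/NK barcodes of 4T1M, which allows up to 3.19% of such barcodes with a UMI and up to 5.74 CPM. Neutrophils of 4T1M were above both limits, at 19.8 CPM and an unthinned share of 6.58%. In 4T1P the T/NK interval spans the neutrophil share. The part of free RNA in the neutrophil values was not tested. The neutrophil level of Irf5 was 15.3% and 21.7% of its macrophage level, where the macrophage markers had medians of 2.69% and 4.26%. Unthinned shares were 4.74% and 6.58% in neutrophils and 45.4% and 47.4% in macrophages, at their unequal depths.

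Irf1 ran the other way, with 292 and 308 CPM in neutrophils and 97.8 and 86.4 in macrophages of 4T1P and 4T1M. The log2 ratio, macrophages over neutrophils, was -1.58 (-1.72 to -1.43) and -1.83 (-1.95 to -1.72). At 1000 UMIs, 21.2% (18.1 to 24.7) and 23.2% (21.2 to 25.3) of neutrophils held an Irf1 UMI, against 8.29% (6.44 to 10.5) and 7.67% (6.05 to 9.56) of macrophages. The intervals of the 2 classes did not overlap in either library. T/NK barcodes stood above both classes with 547 and 401 CPM.

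Irf9, the DNA-binding part of ISGF3, measured 74.3 and 97.7 CPM in neutrophils and 36.3 and 48.8 in macrophages, log2 ratios of -1.03 (-1.30 to -0.77) and -1.002 (-1.18 to -0.83). The 4T1M ratio lay at the 2-fold limit and came to -0.89, under 2-fold, at an alternative setting. The gene of Irf9 overlaps Rnf31 on the same strand in the annotation. Stat2, its partner, was at 31.96 and 47.3 CPM in neutrophils and 21.9 and 43.1 in macrophages. The Stat2 ratio of -0.55 (-0.93 to -0.15) in 4T1P was off 0, and that of -0.13 (-0.35 to 0.09) in 4T1M was not.

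Stat3 read 217 and 209 CPM in neutrophils and 120 and 122 in macrophages, log2 ratios of -0.85 (-1.004 to -0.70) and -0.78 (-0.89 to -0.67). Its partner in feedback, Socs3, showed almost no class difference: 374 and 316 CPM in neutrophils and 408 and 375 in macrophages. The Socs3 log2 ratio was 0.12 (0.02 to 0.23) and 0.25 (0.17 to 0.33), and became -0.56 and -0.49 with TMM, so no direction is given. At 1000 UMIs 27.9% and 25.9% of neutrophils and 27.1% and 28.1% of macrophages held a Socs3 UMI.

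Socs1 was at 39.6 and 43.2 CPM in neutrophils and 16.5 and 17.0 in macrophages, log2 ratios of -1.26 (-1.64 to -0.87) and -1.34 (-1.63 to -1.06). T/NK barcodes were higher than either class, with 293 and 206 CPM. The 10 neutrophil markers in macrophages stood at 1.89% and 3.15% of their neutrophil level. Irf1 in macrophages was 0.335- and 0.280-fold, Irf9 0.488- and 0.499-fold and Socs1 0.418- and 0.394-fold their neutrophil level.

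Irf7, the amplifier, was the only one of the 9 whose class order turned with the library on the total-UMI scale. In 4T1P it was 91.1 CPM (79.7 to 104) in neutrophils and 61.9 (56.8 to 67.4) in macrophages, a log2 ratio of -0.56 (-0.78 to -0.33). In 4T1M it was 132 (123 to 141) and 186 (177 to 195), a log2 ratio of 0.49 (0.37 to 0.61). With TMM the 4T1M ratio was -0.25 and with DESeq2 size factors -0.34, so macrophages were then lower in both libraries; the change between the libraries remained in each scaling. At 1000 UMIs the share of cells with an Irf7 UMI was 7.03% (5.13 to 9.35) of neutrophils and 6.09% (4.51 to 8.01) of macrophages in 4T1P, and 12.7% (11.1 to 14.3) and 17.9% (15.5 to 20.5) in 4T1M.

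**Figure D2:**
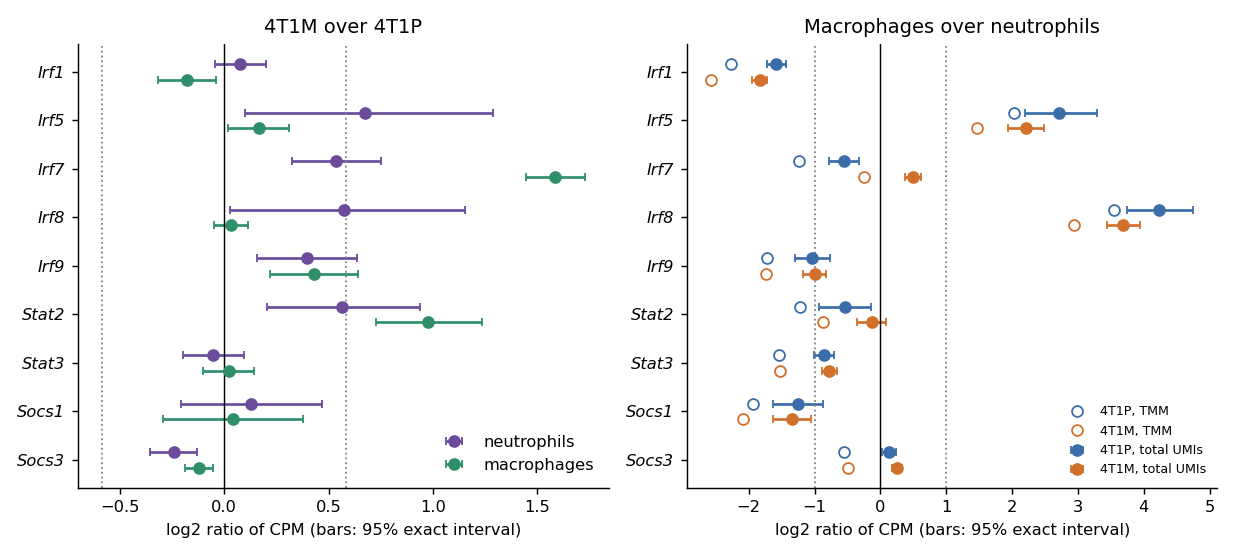
Log2 ratios of CPM for the 9 genes with 95% exact intervals: left, 4T1M over 4T1P in neutrophils (purple) and macrophages (green), dotted lines at 1.5-fold; right, macrophages over neutrophils in 4T1P (blue) and 4T1M (orange), dotted lines at 2-fold, filled points with total UMIs and open points with TMM. Irf7 and Stat2 of macrophages lie past 1.5-fold on the left, and Irf7 and Socs3 change sides of 0 between filled and open points on the right.

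The second comparison set 4T1M against 4T1P inside each class. In macrophages Irf7 was 3.002-fold and Stat2 1.97-fold higher in 4T1M, Irf9 was 1.35-fold higher, and the other 6 genes lay between 0.884- and 1.12-fold. In neutrophils Irf7, Stat2 and Irf9 were 1.45-, 1.48- and 1.31-fold higher in 4T1M, Socs3 was lower, and Irf1, Stat3 and Socs1 had intervals that included 0. At least 1.5-fold higher in macrophages were 2 of 9 genes, beside 4.03% of 9874 genes; 0 of 9 were as much lower, beside 4.08%. In neutrophils 1 of 9, Irf5, was at least 1.5-fold higher, beside 9.81% of 6465 genes, and 0 lower, beside 3.12%. The median log2 ratio of the 9 genes was 0.04 in macrophages and 0.40 in neutrophils, against -0.03 and 0.05 for all genes.

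Irf7 in macrophages rested on 543 UMIs in 4T1P and 1737 in 4T1M, a log2 ratio of 1.59 (1.45 to 1.73). Across the alternative settings the value ran from 1.46 to 1.64. The neutrophil markers in macrophages moved as well, from 381 to 542 CPM, and the macrophage markers fell from 3721 to 2704 CPM. The part of either marker list in the Irf7 ratio was not tested. In neutrophils the Irf7 log2 ratio was 0.54 (0.32 to 0.75), from 228 and 869 UMIs.

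Stat2 in macrophages had 192 and 403 UMIs and a log2 ratio of 0.98 (0.73 to 1.23), and in neutrophils 80 and 311 UMIs and 0.56 (0.21 to 0.94). The neutrophil value was 0.26 when each cell was weighted alike and 0.70 at a mitochondrial limit of 5%. Irf9 was closely alike in both classes, with 0.43 (0.22 to 0.64) in macrophages and 0.40 (0.16 to 0.64) in neutrophils. Irf7, Stat2 and Irf9 had intervals above 0 in both classes, as did Irf5, given next. The share of all genes with such intervals was not computed.

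Irf5 and Irf8 rested on few molecules in neutrophils. Irf5 counted 31 and 130 UMIs there, a log2 ratio of 0.67 (0.10 to 1.29), and Irf8 35 and 137, a ratio of 0.57 (0.03 to 1.15). The macrophage markers in neutrophils were also higher in 4T1M, at 4.73% of their macrophage level against 2.71%; their part in these ratios was not tested. With stricter class rules the Irf5 ratio was 0.23, under 1.5-fold, and the Irf8 ratio 2.13. In macrophages, where both genes were abundant, the log2 ratios were 0.17 (0.02 to 0.31) for Irf5 and 0.03 (-0.05 to 0.12) for Irf8.

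Of the feedback inhibitors, Socs3 was slightly lower in 4T1M and Socs1 had no difference beyond its interval. Socs3 was lower in 4T1M in both classes, with a log2 ratio of -0.24 (-0.35 to -0.13) in neutrophils and -0.12 (-0.19 to -0.05) in macrophages. These are 0.845- and 0.920-fold. Socs1 gave 0.13 (-0.21 to 0.47) and 0.04 (-0.29 to 0.38), from 99 and 284 UMIs in neutrophils and 145 and 159 in macrophages. Irf1 was -0.18 (-0.32 to -0.04) in macrophages and 0.08 (-0.05 to 0.20) in neutrophils, and Stat3 0.02 (-0.10 to 0.14) and -0.05 (-0.20 to 0.09).

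The third question was how the 9 genes vary between cells of 1 class and library. Each cell of at least 1000 UMIs was thinned to 1000 and its UMIs of 28 type I interferon-stimulated genes (among them Isg15, Ifit1, Rsad2 and Oasl2) were summed. Cells up to the median of both libraries were called the low range and cells above the 80th percentile the high range, separately in each class; none of the 9 genes is on the list. The limit of the high range was above 7 UMIs in neutrophils and above 6 in macrophages, and 228 of 2294 neutrophils and 284 of 1711 macrophages lay within 1 UMI of it, so the ranges cut a continuum. The high range held 12.6% (10.1 to 15.5) of 4T1P neutrophils and 22.1% (20.1 to 24.1) of 4T1M neutrophils. In macrophages it held 7.25% (5.53 to 9.32) and 26.0% (23.2 to 28.9).

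**Figure D3:**
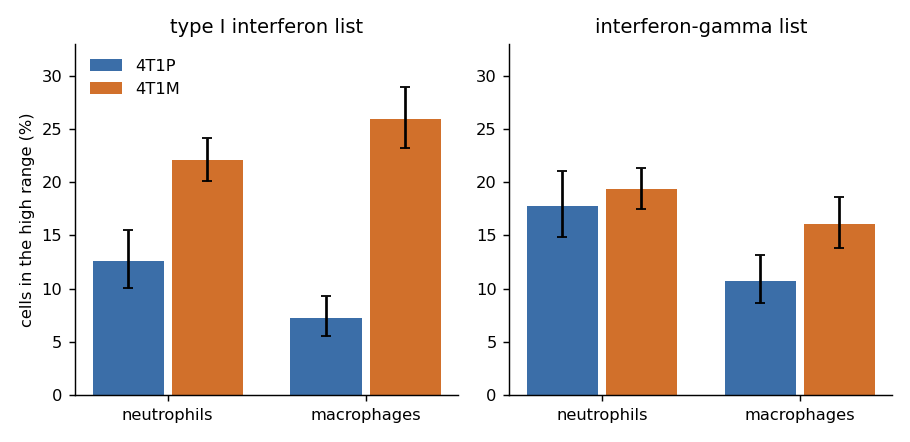
Percentage of neutrophils and macrophages (of those with at least 1000 UMIs) in the high range of the type I interferon list (left) and the interferon-gamma list (right), in 4T1P (blue) and 4T1M (orange), bars from 0 with 95% exact binomial intervals. The type I share of macrophages is 7.25% in 4T1P and 26.0% in 4T1M.

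Irf7, Stat2, Irf9, Irf1, Socs1 and Socs3 rose with the list in neutrophils of 4T1P, and the same genes other than Socs3 did so by at least 1.5-fold in those of 4T1M. At least 1.5-fold higher in the high than the low range were 6 of 7 genes tested in 4T1P neutrophils, beside 14.0% of 3212 genes, and 5 of 9 in 4T1M neutrophils, beside 7.70% of 4844. In macrophages they were 4 of 9 in 4T1P, beside 10.1% of 7965 genes, and 2 of 9 in 4T1M, beside 9.15% of 7487. The median log2 ratio of the genes tested was 1.84, 1.13, 0.46 and 0.38 in that order, against -0.03, -0.08, -0.09 and -0.01 over all genes. TMM moved these ratios by -0.10 in 4T1P neutrophils and by less in the other 3 settings.

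Stat2 had the highest ratio of the genes tested in neutrophils, from 14.4 CPM in the low to 165 in the high range of 4T1P (log2 3.52, 2.78 to 4.29) and from 17.1 to 111 in 4T1M (2.70, 2.24 to 3.19). Irf7 went from 49.0 to 330 CPM in 4T1P neutrophils (2.75, 2.31 to 3.20) and from 58.0 to 288 in 4T1M (2.31, 2.05 to 2.58). Irf9 went from 53.6 to 181 and from 62.6 to 180 CPM. For these 3 genes the intervals of the ratios lay above 0 in both libraries.

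Irf1 in neutrophils went from 204 to 734 CPM in 4T1P (1.84, 1.58 to 2.10) and from 219 to 479 in 4T1M (1.13, 0.97 to 1.29). In macrophages the same gene hardly moved with the type I list, with log2 ratios of 0.29 (-0.09 to 0.66) and 0.28 (0.01 to 0.55). Stat3 stayed under 1.5-fold throughout, between -0.04 and 0.33, with an interval off 0 in 4T1M neutrophils alone. Irf9 in macrophages gave 0.65 and 0.38. Irf8, measurable in macrophages, gave 0.32 and 0.28 there.

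Socs1 rose 4.24-fold in 4T1P neutrophils, from 25.3 to 108 CPM, and 2.19-fold in 4T1M, from 29.8 to 65.2. In macrophages it rose from 15.3 to 38.5 CPM in 4T1P (1.33, 0.62 to 1.99), while 15.1 and 18.7 CPM in 4T1M did not differ beyond their intervals (0.31, -0.30 to 0.93). Socs3 rose from 303 to 676 CPM in 4T1P neutrophils and from 257 to 380 in 4T1M neutrophils. In macrophages Socs3 was 1.37- and 1.42-fold higher in the high range.

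**Figure D4:**
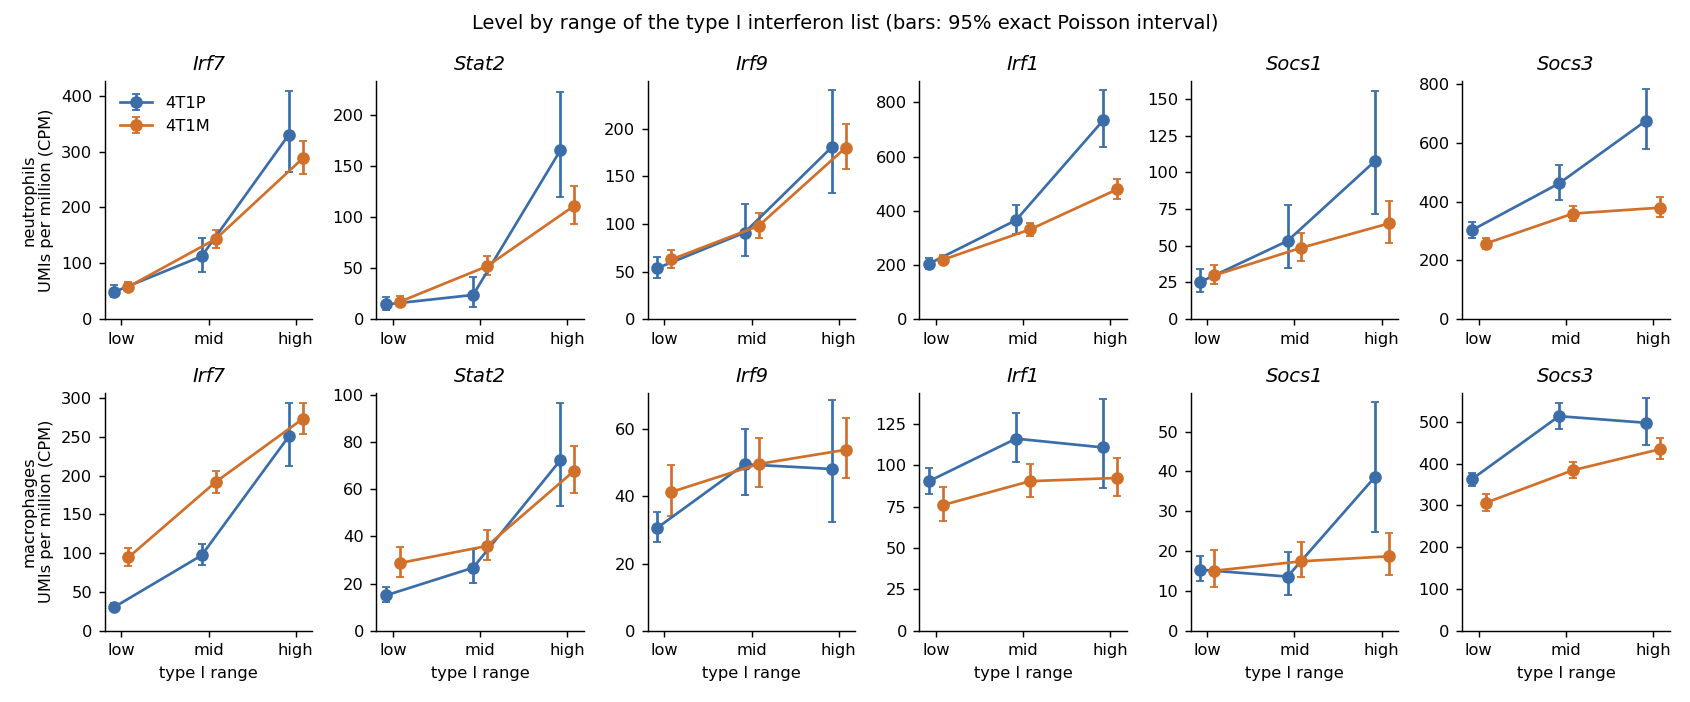
Level of 6 genes in CPM (vertical axes from 0) in the low, middle and high ranges of the type I interferon list, in neutrophils (top) and macrophages (bottom) of 4T1P (blue) and 4T1M (orange), with 95% exact Poisson intervals. The lines of Irf7 in macrophages are apart in the low range and meet in the high range. Those of Irf1 in neutrophils start close and separate in the high range. Those of Socs3 in neutrophils are apart in every range and furthest apart in the high range.

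The same ranges allow 4T1M to be set against 4T1P among cells of the same type I range. The list level was not always alike inside a range. In the low range of neutrophils it was 1.62-fold higher in 4T1M, and the folds in macrophages follow. For these ratios inside ranges no share over all genes was computed, so how unusual a value is cannot be told. In the low range of macrophages Irf7 was 30.7 CPM in 4T1P and 94.5 in 4T1M, 3.08-fold higher (log2 1.62, 1.35 to 1.90), while the list itself was 1.46-fold higher. In the middle range Irf7 was 97.2 and 192 CPM, 1.97-fold, beside 1.28-fold for the list. In the high range it was 251 and 273 CPM, 1.09-fold (0.12, -0.13 to 0.38), beside 1.03-fold for the list. Cells were placed in a range by their list count, which limits the list fold inside a range, and Irf7 had no part in that choice. The Irf7 and list folds are therefore not on equal terms. Stat2 in macrophages followed the same order, with 15.01 and 28.7 CPM in the low range (0.94, 0.49 to 1.38) and 72.3 and 67.8 in the high range (-0.09, -0.57 to 0.41). Between 4T1P and 4T1M the neutrophil markers went from 324 to 686 CPM and the macrophage markers from 4377 to 2774 CPM in the high range, and the median depth of the low range was 9976 and 7368 UMIs; their part was not tested. With the high range set above the 90th percentile Irf7 was -0.30 (-0.61 to 0.02) there. A second thinning gave Irf7 2.12 (1.85 to 2.40) in the low range, above the value and much of the interval of the first. In the high range it gave 0.23 (-0.02 to 0.48). In the high interferon-gamma range of macrophages Irf7 was still higher in 4T1M, at 106 CPM in 4T1P against 265 (1.32, 1.001 to 1.65). Stat2 was higher there as well, at 30.3 against 76.8 CPM (1.34, 0.74 to 1.99). The type I list stood at 5090 CPM in 4T1P and 7062 in 4T1M in that range, and its part was not tested.

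In neutrophils the high range showed lower Irf1 and Socs3 in 4T1M, again without a share over all genes to set beside them. The list stood at 14553 CPM in the high range of 4T1P and 14498 in that of 4T1M, and Irf7 and Irf9 did not differ beyond their intervals (-0.20, -0.54 to 0.16, and 0.00, -0.46 to 0.48). Irf1, at 734 against 479 CPM, was lower in 4T1M (-0.62, -0.85 to -0.37), and so was Socs3, at 676 against 380 CPM (-0.83, -1.08 to -0.58). These values rest on 77 cells of 4T1P and 371 of 4T1M. The same cells were not alike in other lists: inflammatory genes summed to 75464 and 94553 CPM, granule genes to 2148 and 2961 and interferon-gamma genes to 5909 and 5228, and the part of these was not tested. In the high interferon-gamma range Irf1 gave -0.28 (-0.49 to -0.07) and Socs3 -0.76 (-0.98 to -0.52). Socs1 was lower there as well, at 120 against 65.5 CPM (-0.88, -1.44 to -0.30). In the high inflammatory range, with 66 cells of 4T1P and 392 of 4T1M, 0 of the 9 genes had an interval below 0. There 1, Stat2, had an interval above 0. In the high granule range 5 of the 9 genes had an interval above 0 (Irf1, Irf5, Irf7, Irf8 and Irf9) and 0 below. Irf1 gave 0.53 (0.23 to 0.84) there and Socs3 -0.15 (-0.39 to 0.10).

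Socs1, at 108 against 65.2 CPM in the high range of neutrophils, gave -0.72 (-1.35 to -0.05), and Stat2, at 165 against 111, gave -0.57 (-1.07 to -0.05). A second thinning left Irf1 at -0.35 (-0.61 to -0.08) and Socs3 at -0.60 (-0.88 to -0.32), but took Socs1 to -0.11 (-0.79 to 0.64) and Stat2 to -0.49 (-1.02 to 0.08). In the low range of neutrophils, where the list itself was 1.62-fold higher in 4T1M, Irf1 was 204 and 219 CPM. Socs1 was 25.3 and 29.8 CPM, and the intervals of both genes included 0. Socs3 was 303 and 257 there (-0.23, -0.40 to -0.07). In the middle range Socs3 was 462 and 360 CPM (-0.36, -0.57 to -0.15), and Irf1 gave -0.14 (-0.38 to 0.10). Stat2 went the other way in the middle range, at 23.7 CPM in 4T1P, from 12 UMIs, and 51.8 in 4T1M (1.13, 0.27 to 2.12). In the low range Stat2 gave 0.24 (-0.47 to 0.99), and 0.91 (0.13 to 1.76) with the second thinning. In the high range of macrophages Socs1 was 38.5 CPM in 4T1P and 18.7 in 4T1M (-1.04, -1.77 to -0.28), from 24 and 51 UMIs.

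The interferon-gamma list (22 genes, among them Cxcl9, Gbp2 and Ciita) gave other values for Irf1 and Irf8 in macrophages. Irf1 rose from 85.6 to 176 CPM in 4T1P (1.04, 0.78 to 1.30) and from 69.5 to 167 in 4T1M (1.27, 1.03 to 1.496), where it had hardly moved with the type I list. Irf8 rose from 229 to 435 CPM and from 232 to 382. Irf7 rose 2.23- and 1.64-fold and Stat2 1.58- and 2.42-fold. The type I list rose as well between these ranges, from 1783 to 5090 CPM in 4T1P and from 4090 to 7062 in 4T1M, so the parts of the 2 lists cannot be told apart in macrophages. At least 1.5-fold higher were 6 of 9 genes in 4T1P macrophages, beside 9.27% of 8208 genes, and 4 of 9 in 4T1M macrophages, beside 8.50% of 8056.

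In neutrophils 6 of 7 genes tested in 4T1P, beside 14.2% of 3422 genes, and 5 of 9 in 4T1M, beside 8.03% of 5308, were at least 1.5-fold higher with the interferon-gamma list. Socs1 rose from 21.8 to 120 CPM in 4T1P neutrophils (2.46, 1.81 to 3.11) and from 34.2 to 65.5 in 4T1M (0.94, 0.51 to 1.36). Irf1 rose from 195 to 730 and from 215 to 602 CPM. Irf8 of 4T1M neutrophils gave -0.08 (-0.82 to 0.60). The 2 lists move together in these cells, since the interferon-gamma list itself stood at 1118 CPM in the low and 5909 in the high type I range of 4T1P neutrophils, so the same holds for neutrophils.

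**Figure D5:**
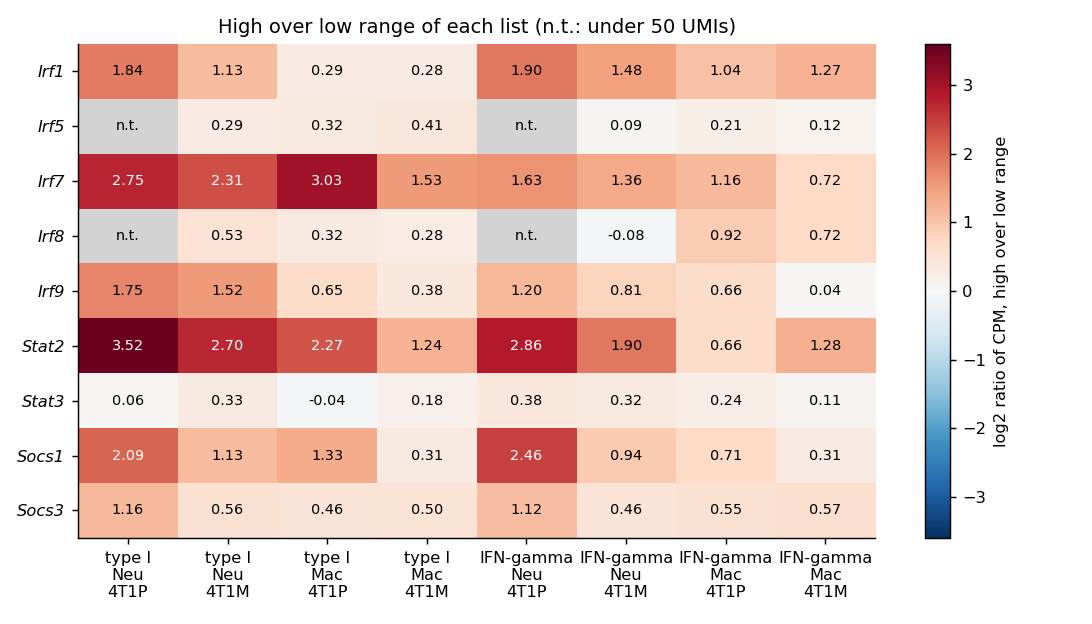
Log2 ratio of CPM, high over low range, for each of the 9 genes (rows) with the type I and the interferon-gamma (IFN-gamma) list in neutrophils (Neu) and macrophages (Mac) of each library (columns); red is higher in the high range, and grey cells marked n.t. had under 50 UMIs. Stat3 stays pale throughout, and Irf1 and Irf8 in macrophages are darker under IFN-gamma than under type I.

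Granule genes (Camp, Ltf, Ngp and 7 more), which mark younger neutrophils, ran against the genes tested, 7 of the 9 in 4T1P and 9 in 4T1M. Most genes fell as well, and 28.3% and 34.8% of all genes had a ratio above 0. At least 1.5-fold lower in the high granule range were 7 of 7 genes in 4T1P neutrophils, beside 45.8% of 3210 genes. In 4T1M neutrophils they were 6 of 9, beside 32.3% of 5207 genes. The median depth rose from 2778 to 6279 UMIs in 4T1P and from 2622 to 4594 in 4T1M between the low and high granule ranges; its part was not tested. TMM moved these ratios by 0.39 in 4T1P and 0.19 in 4T1M. The median log2 ratio, high over low granule range, was -1.24 for the genes tested in 4T1P neutrophils and -0.62 in 4T1M, beside -0.50 and -0.27 for all genes. Stat2 was the lowest of those tested, at -2.03 (-3.23 to -0.995) and -1.43 (-1.97 to -0.92). With a list of 12 inflammatory genes (among them Il1b, Tnf and Cxcl2), Socs3 of macrophages rose from 326 to 508 CPM in 4T1P (0.64, 0.51 to 0.77) and from 332 to 444 in 4T1M (0.42, 0.30 to 0.54). Irf8 of macrophages moved the other way, from 289 to 165 CPM (-0.81, -1.004 to -0.62) and from 308 to 188 (-0.71, -0.87 to -0.55). TMM moved these ratios by 0.17 and 0.18. Irf8 was not the lowest of the 9 genes, whose lowest ratios were -0.93 in 4T1P and -0.86 in 4T1M. At least 1.5-fold lower in 4T1P macrophages were 2 of 9, Irf7 and Irf8, beside 22.0% of 7698 genes. In 4T1M macrophages they were 2 of 9, Irf8 and Stat2, beside 18.7% of 7590. As much higher were 2 of 9 in 4T1P, Socs1 and Socs3, beside 8.57%, and 0 in 4T1M, beside 8.67%. The median of all genes was -0.19 in both, and the median depth of these macrophages rose from 5746 to 13886 UMIs and from 4415.5 to 11043 between the low and high inflammatory ranges; its part was not tested.

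The rest of the pathway was read from fixed lists of 52 genes, of which 34 had at least 50 UMIs in neutrophils and 43 in macrophages. Between the libraries 8 were at least 1.5-fold higher and 1 lower in 4T1M neutrophils, and 5 higher and 0 lower in 4T1M macrophages. Over all genes these shares were 9.81% higher and 3.12% lower in neutrophils and 4.03% and 4.08% in macrophages. Usp18, an interferon-induced brake on the type I receptor, was 7.53 and 25.7 CPM in macrophages (1.77, 1.37 to 2.19) and 25.2 and 49.5 in neutrophils (0.98, 0.58 to 1.39).

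The kinase Jak2 was higher in 4T1M in both classes, at 98.7 and 173 CPM in neutrophils (0.81, 0.61 to 1.02) and 60.7 and 96.4 in macrophages (0.67, 0.51 to 0.83). Cish, a SOCS relative induced by Stat5, was 12.8 and 40.7 CPM in neutrophils (1.67, 1.14 to 2.25). None of the 9 receptors tested in neutrophils passed 1.5-fold, and 1 of 10 did in macrophages, Csf3r, which is also on the neutrophil marker list. Ifnar1 gave -0.13 (-0.33 to 0.08) in neutrophils and -0.12 (-0.27 to 0.02) in macrophages.

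Among ligands, Ifnb1, the gene of interferon-beta, was a macrophage transcript, with 66.0 and 59.2 CPM there. Neutrophils held 3 UMIs in 4T1P and 71 in 4T1M, a log2 ratio of 3.17 (1.56 to 5.48). Il6, at 112 CPM in macrophages of both libraries, counted 7 and 86 UMIs in neutrophils (2.22, 1.12 to 3.58), and Il10 9 and 45 (0.93, -0.12 to 2.15). The macrophage markers in neutrophils went from 2.71% to 4.73% of their macrophage level between the libraries; their part in these ratios was not tested. Il27 was higher in 4T1M macrophages, with 47 and 87 UMIs (0.80, 0.27 to 1.34). Jak3 and Pias2 were the other 2 genes past 1.5-fold higher in neutrophils, and Irf3 the 1 that was lower, with 27 and 38 UMIs (-0.90, -1.65 to -0.13).

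Across 16 cell groups (the ranges and the T/NK and B barcodes of each library), 7978 genes were ranked by the Pearson correlation of log2(CPM + 10) with each of the 9; the groups share libraries and the ranges were cut by interferon genes, so these values only describe. Irf7 was most like Rsad2 (r = 0.95), Zbp1 (0.94) and Oasl2 (0.93), and Stat2 most like Parp14 (0.92), Slfn8 (0.90) and Herc6 (0.90); all of these but Parp14 are on the type I list. Irf5 was most like Unc93b1 (0.99), the chaperone of endosomal Toll-like receptors, Ctsh (0.97) and Blvrb (0.96). Irf1 was most like Trim56 (0.95), Kdm6b (0.93) and Zfp36l2 (0.92), and Stat3 most like Sbno2 (0.98). Irf8 led with Mrpl3 (0.98), Irf9 with Ascc3 (0.92), Socs1 with Arf4 (0.95) and Socs3 with Zfp36l1 (0.93).

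Among the 9 themselves, Irf7 and Stat2 (r = 0.81), Irf1 and Socs1 (0.82), Irf1 and Irf9 (0.80), Irf9 and Stat2 (0.76) and Socs1 and Stat3 (0.77) were alike over the 16 groups. Irf5 ran against Stat3 (-0.83), Socs1 (-0.82) and Irf1 (-0.80). Socs3 was nearest to Irf7 (0.67) and Stat2 (0.64) and unlike Socs1 (0.12).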

How the data were processed

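GR1+ cells of 4T1P and 4T1M tumors were profiled in 1 droplet library each. Per the labels, the authors used Cell Ranger 4.0.0 (the study's methods name another version) and mm10, and the deposited matrices hold counts of UMIs, not normalized; chemistry and read strand are not given in the sources used here. Counts were summed per class and library and divided by the total (CPM). Exact Poisson intervals were given for CPM, Clopper-Pearson intervals for shares, and the exact conditional interval for ratios, all at 95%; PCR duplicates are collapsed by UMIs. With 1 library per condition no p-value was computed. A gene was counted as different at 1.5-fold between libraries or ranges and 2-fold between classes, among genes with at least 50 UMIs in the 2 sums together. Cells were thinned to 1000 UMIs without replacement. T/NK and B barcodes were those with at least 3 UMIs and 0.1% of UMIs in their markers. Doublets were not called; the 5% of barcodes with most UMIs per class were left out in an alternative. Alternative scalings used TMM (edgeR 4.0.16) and size factors (DESeq2 1.42.0, R 4.3.3), other values from Python 3.11.15 with scipy 1.17.1. The ratio step was tested on simulated data. The named genes were all 9 members, the listed pathway genes past the fold, and the 3 most alike genes of each member, with further pathway genes named for their role; 1 listed pathway gene is counted but not reported here. Members, lists and cut-offs were chosen with earlier results of these data known.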

Additional observations from a re-analysis of the deposited data

Results flagged for a closer look

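Irf7 stood out because its class order went opposite ways in the 2 libraries. Its log2 ratio, macrophages over neutrophils, was -0.56 in 4T1P and 0.49 in 4T1M, a difference of 1.05 with both counting intervals off 0. The difference was not tested, since each condition has 1 library. With TMM scaling the ratios were -1.24 and -0.25, of the same sign.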

How the results depend on the processing

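No paired analysis was possible because each condition has 1 library. Of the 9 genes, 1 was past 1.5-fold in neutrophils between the libraries in the main setting and 2 at a mitochondrial limit of 5% and with the stricter class rules. Irf5, the 1 of the main setting, was not among the 2 with the stricter class rules. Its log2 ratio was 0.23 there, and that of Irf8 was 2.13. In 4T1P, 3 were at least 2-fold lower in macrophages than in neutrophils, 6 with TMM or DESeq2 scaling and 5 with each cell weighted alike; the scalings shift all ratios of that comparison down by construction, and for the others the cause was not tested. Of the recomputed counts of the 9 genes, 71 of 76 stayed within 1.5 times. Of the recomputed log2 ratios, 117 of 126 between libraries, 52 of 108 between classes, 182 of 204 between ranges and 72 of 81 inside ranges stayed within the counting interval, and no ratio past its fold changed sign. Some of these settings could hardly move a ratio. Between libraries, TMM and DESeq2 scaling shifted ratios by at most 0.054 and leaving out shared barcodes removed few cells. All 18 ratios stayed in each of these settings, as did all 68 between ranges with TMM. The settings inside ranges were chosen after seeing the data. With each cell weighted alike Irf1 in neutrophils went from 0.08 to -0.11. All genes past 1.5-fold in neutrophils were 634 higher and 202 lower with at least 50 UMIs, 1701 and 951 with at least 10, and 228 and 34 with at least 200. Shares of cells, recomputed at 500 and 2000 UMIs and unthinned, moved past their interval in 102 of 108 cases. By Spearman's rho at least 2 of the 3 most alike genes were kept for 2 of the 9. One library per condition limits every comparison.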
